A study of Mus musculus with 25 samples.

Results

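Adult liver type 1 innate lymphoid cells (ILC1s) with and without the IL-7 receptor were compared across all genes that passed a filter on low counts. The comparison takes 7 of the 25 libraries of the study, 3 from 7R+ ILC1s and 4 from 7R- ILC1s, sorted from the liver of wild-type C57BL/6 mice aged 8 weeks. Both groups were gated as cells without CD3 that carried NK1.1, NKp46 and CD49a and were low for CD49b, and they differed in the gate only by IL-7R. The other libraries are NK cells of the adult liver (AL NK), immature ILC1s (BM iILC1s) and NK cells of the bone marrow, group 1 ILCs of the fetal liver at E18.5 (FL G1-ILCs) and group 1 cells of the small intestine and salivary gland, all from wild-type mice of the same strain and, apart from the fetal liver, of the same age. The study calls the libraries biological replicates, and the labels do not tie them to single animals. Each library is a small pool of sorted cells, so that fewer cells with a transcript and less transcript in each cell cannot be told apart.

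ILC1s are tissue-resident relatives of NK cells that depend on the transcription factor T-bet and make IFN-γ and tumor necrosis factor family ligands. Conventional NK cells circulate and express Eomes. Killing through granules of perforin and granzymes is not confined to NK cells. The paper reports such killing by freshly isolated liver ILC1s without the IL-7 receptor, and little or no killing by unstimulated NK cells. The IL-7 receptor joins the α chain encoded by Il7r to the common γ chain and signals through JAK1, JAK3 and STAT5. It is found on most helper-like ILCs and on naive and memory T cells, and it is low on most mature mouse NK cells.

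Expression is given as read counts scaled for library size and composition (normalized CPM, with TMM factors), and a difference between 7R+ and 7R- ILC1s as a log2 fold change (log2FC, 7R+ over 7R-) with its standard error. Genes were called with edgeR's quasi-likelihood test at an adjusted p under 0.05 over 13424 genes of 46078 in the count table, and an adjusted p comes from that test unless another tool is named. Total counts were 3752189 to 7995906 per library. Pairs of libraries of 1 group differed by 6.07 to 10.8 times the counting noise (chi-square per degree of freedom), so no library was a copy of another. Hemoglobin transcripts set replicates 2 and 3 of 7R- ILC1s apart from the other 5 libraries: Hba-a1 stood at 0, 73.4, 177 and 0 CPM in 7R- ILC1s and at 0 in all 3 libraries of 7R+ ILC1s.

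Between the 2 populations, 852 genes differed (6.35% of those tested). Of these, 477 genes were higher (3.55%) and 375 genes were lower (2.79%) in 7R+ ILC1s. These shares are the background for the counts of list members below. The change was over 2-fold for 252 of the higher and 149 of the lower genes, and over 16-fold for 30 and 21. The libraries of the 2 groups did not overlap for 442 of the higher and 358 of the lower genes, where 14.9% of all genes tested had groups that did not overlap. The largest changes outside the gate were taken among called genes with an average log2 CPM of at least 5 and groups that did not overlap. For genes chosen this way the separation of the groups was fixed by the choice. Where it is mentioned below, it describes the values and adds no support. The largest increases in 7R+ ILC1s were those of Emb, Cd28, Tnfrsf25, Il18r1 and Tmem176a. The largest decreases included those of Htra3, Klra5, Cd3g and the granzymes Gzma and Gzmb. Without replicates 2 and 3 of 7R- ILC1s, which carried the hemoglobin reads, 352 genes were higher and 261 were lower, and 518 of the 852 calls were shared. Without replicate 3 of 7R+ ILC1s, the library of highest depth, 343 genes were higher and 240 were lower.

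**Figure D1:**
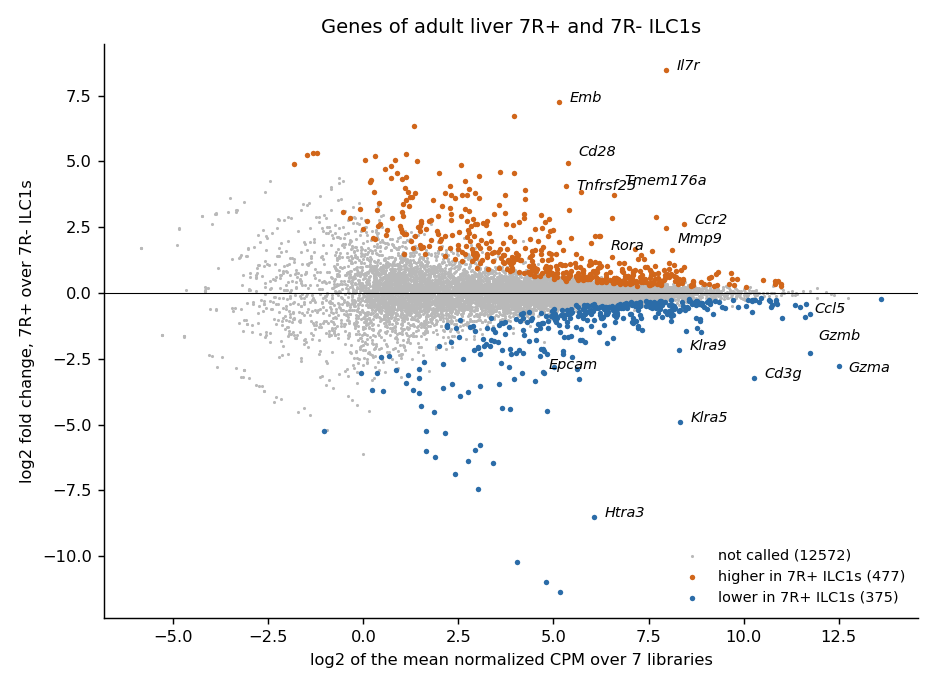
Each point is 1 of 13424 genes, placed by the log2 of its mean normalized CPM over the 7 libraries (x) and its log2 fold change, 7R+ over 7R- ILC1s (y). Orange points are the 477 genes higher and blue points the 375 genes lower in 7R+ ILC1s. Il7r lies highest at 8.47, and the 3 blue points below -10 are hemoglobin genes.

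The genes of the sorted proteins were read first, as a check of the labels. Il7r stood at 518, 591 and 619 CPM in 7R+ ILC1s and at 1.06, 1.07, 0.613 and 4.53 CPM in 7R- ILC1s. The groups were far apart in every library, and replicate 4 of 7R- ILC1s was the highest of its group. The log2FC was 8.47 ± 0.26 (adjusted p = 1.87e-15), and 9.31 without that library. Klrb1c, which encodes NK1.1, was at 2094, 2084 and 2029 CPM against 2197, 1962, 2104 and 1998 CPM (log2FC 0.00 ± 0.07, adjusted p = 0.991). Ncr1, the gene of NKp46, differed slightly (0.34 ± 0.07, adjusted p = 0.00405), and Itga2, the gene of CD49b, did not pass the test (0.30 ± 0.18, adjusted p = 0.425). Itga1, the gene of CD49a, was at 413, 490 and 331 CPM in 7R+ ILC1s and at 655, 780, 780 and 656 CPM in 7R- ILC1s. All 3 libraries of 7R+ ILC1s were below all 4 of 7R- ILC1s (-0.80 ± 0.22, adjusted p = 0.0321), but the call was lost on leaving out replicate 1 or 3 of 7R+ ILC1s or replicate 2 or 3 of 7R- ILC1s (-0.67 without replicate 3 of 7R+ ILC1s), and with DESeq2 (adjusted p = 0.311). Cd3e, whose protein the gate excluded, had 3 counts in all libraries of 7R+ ILC1s together and 6.63 to 36.5 CPM in 7R- ILC1s, a ratio of 91.7 with a 95% counting interval of 31.1 to 447 (log2FC -6.47, and -7.41 without replicate 1 of 7R+ ILC1s). These genes belong to the gate and are no independent result.

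Il7r lies on the minus strand of chromosome 15 at 9505788 to 9530176 (mm10). The sequence around its start is shown because it is the gene that splits the 2 populations, from 250 bases before to 50 bases after the start (RefSeq, GRCm38.p6, chr15:9529827-9530126, minus strand). It holds none of the 5 motifs searched, which are given with the transcription factors, so none of its letters is in capitals.
Il7r: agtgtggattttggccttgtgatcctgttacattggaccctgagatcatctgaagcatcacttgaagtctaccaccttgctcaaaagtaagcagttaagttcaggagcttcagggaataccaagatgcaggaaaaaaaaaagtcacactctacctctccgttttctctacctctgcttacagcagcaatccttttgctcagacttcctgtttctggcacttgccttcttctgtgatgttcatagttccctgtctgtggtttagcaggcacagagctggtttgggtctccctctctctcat

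The ILC1 label was then checked against markers that separate ILC1s from NK cells, and both populations matched ILC1s. Cxcr6, a chemokine receptor of tissue-resident lymphocytes, was at 946 ± 69.0 CPM (SD, n = 3) in 7R+ ILC1s and 972 ± 150.1 CPM (SD, n = 4) in 7R- ILC1s, against 2.35 ± 1.71 CPM (SD, n = 2) in AL NK cells. Zfp683, which encodes the tissue residency factor Hobit, was at 160, 175 and 155 CPM against 220, 195, 190 and 192 CPM (-0.29 ± 0.12, adjusted p = 0.195), and at 1.24 ± 0.41 CPM in AL NK cells. Tnfsf10, the gene of the death ligand TRAIL, was at 236 ± 0.93 CPM and 285 ± 29.8 CPM, with 11.6 ± 5.59 CPM in AL NK cells. Eomes, the defining factor of NK cells, was at 0, 1.17 and 6.00 CPM in 7R+ ILC1s, 4.77, 1.79, 4.60 and 3.73 CPM in 7R- ILC1s and 499 ± 4.83 CPM in AL NK cells. Eomes did not pass the test between the ILC1 groups (-0.28 ± 0.52, adjusted p = 0.861), though without replicate 3 of 7R+ ILC1s, its highest library, it was lower in 7R+ ILC1s (-2.64, adjusted p = 0.0247). Tbx21, the gene of T-bet, was high in both (816 ± 51.8 and 700 ± 70.2 CPM) and passed only without replicate 2 of 7R- ILC1s (0.29, adjusted p = 0.0216). Of the 10 ILC1 markers listed, 3 were higher (Tmem176a, Tmem176b, Ckb) and 2 lower (Itga1, Cd3g) in 7R+ ILC1s.

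After Il7r, the 3 largest increases in 7R+ ILC1s were in genes at under 10 CPM in every library of 7R- ILC1s. Emb encodes embigin, a membrane glycoprotein of the basigin family that accompanies monocarboxylate transporters. It stood at 76.1, 79.3 and 91.0 CPM in 7R+ ILC1s and at 0, 0.358, 0.153 and 1.87 CPM in 7R- ILC1s. The groups were separate, with replicate 4 again the highest of 7R- ILC1s (log2FC 7.26 ± 0.31, adjusted p = 9.38e-13, and 8.60 without that library). AL NK cells had 128 CPM. Cd28, the costimulatory receptor of T cells, was at 91.1, 96.2 and 89.8 CPM against 0.265, 4.84, 0.307 and 7.19 CPM. The 7R+ libraries were nearly level, whereas 7R- ILC1s fell into 2 libraries under 1 CPM and 2 near 5 to 7 CPM (4.95 ± 0.41, adjusted p = 3.57e-08, and 5.60 without replicate 4 of 7R- ILC1s). Tnfrsf25, the receptor DR3 for the cytokine TL1A, was at 90.2, 69.7 and 101 CPM against 2.12, 5.91, 6.44 and 5.86 CPM (4.05 ± 0.29, adjusted p = 4.59e-09), with no overlap. In AL NK cells, Cd28 was at 85.9 ± 6.89 CPM and Tnfrsf25 at 5.08 ± 0.73 CPM.

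The start of Emb is shown as that of the largest increase after Il7r in the values above. The gene spans 117208536 to 117274415 on the plus strand of chromosome 13, and the RefSeq start lies within it. The 300 bases are chr13:117220323-117220622 on the plus strand (GRCm38.p6), and the capitals mark the reverse complement of CTTTGA, a core read by TCF1 and LEF1, 155 bases before the start.
Emb: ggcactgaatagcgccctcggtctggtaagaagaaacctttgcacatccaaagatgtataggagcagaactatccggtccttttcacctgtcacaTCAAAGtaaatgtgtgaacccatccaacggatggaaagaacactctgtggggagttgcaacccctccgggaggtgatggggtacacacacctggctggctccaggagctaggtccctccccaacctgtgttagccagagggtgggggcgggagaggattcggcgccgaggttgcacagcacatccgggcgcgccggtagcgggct

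The next genes of this group were a pair of neighbours and factors of migration and adhesion. Tmem176a and Tmem176b encode cation channel-like membrane proteins first known from immature dendritic cells. Tmem176a was at 190, 203 and 217 CPM in 7R+ ILC1s and at 13.3 to 18.4 CPM in 7R- ILC1s (3.71 ± 0.22, adjusted p = 2.35e-10), and Tmem176b at 378, 368 and 477 CPM against 39.5 to 75.9 CPM (2.88 ± 0.18, adjusted p = 4.19e-10). Each was separate between groups, and because the 2 genes overlap on opposite strands and the strand setting of the counting is not given in the sources used here, their reads cannot be fully told apart. Of the genes named below, Gpr183, Cd247, Ly9, Tnfrsf9, Pfkfb3, Cd81 and Eng also overlap a gene of the opposite strand. Mmp9, a secreted gelatinase, was at 539, 467 and 409 CPM against 49.9, 91.7, 104 and 96.2 CPM (2.45 ± 0.37, adjusted p = 0.000196, and 0.203 with DESeq2). Itgb3, the β3 integrin chain, was at 95.5, 140 and 166 CPM against 24.5 to 40.8 CPM (2.16 ± 0.20, adjusted p = 2.16e-07). Gm45837, which lies on the same strand within Arap1, was at 92.0, 76.0 and 70.9 CPM against 11.7 to 27.3 CPM (2.08 ± 0.20).

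**Figure D2:**
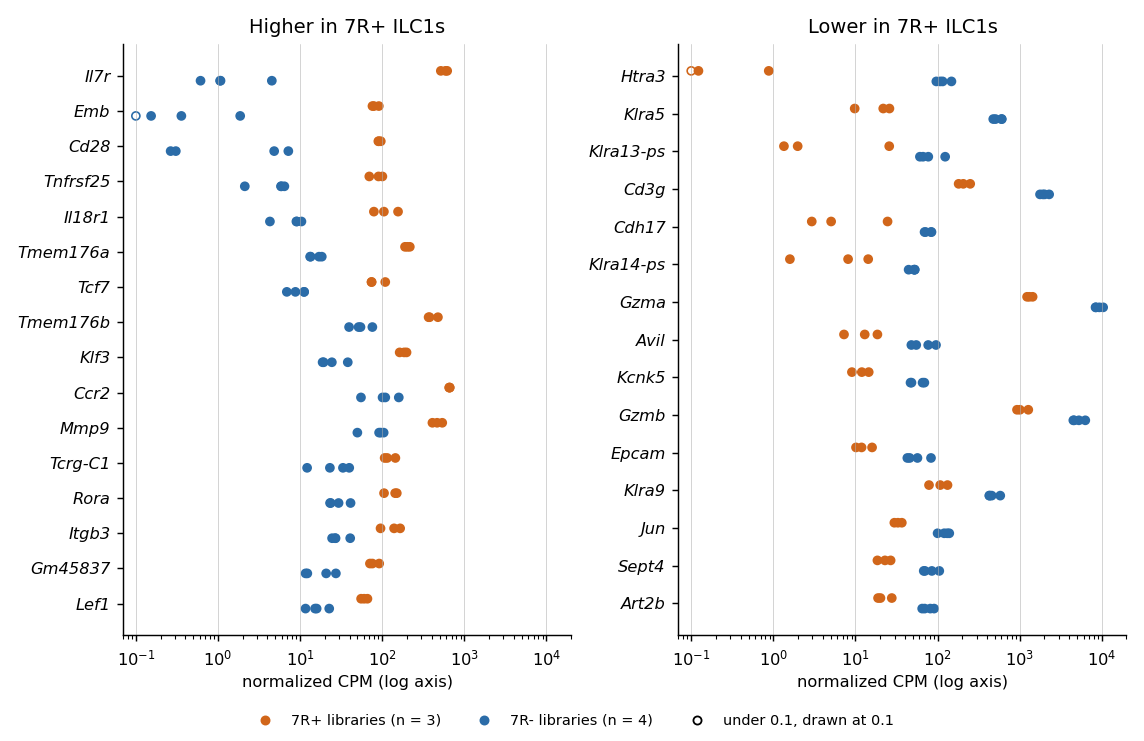
Normalized CPM (log axis) in each of the 3 libraries of 7R+ ILC1s (orange) and 4 libraries of 7R- ILC1s (blue) for Il7r and the 15 genes with the largest increase (left) and the 15 with the largest decrease (right) in 7R+ ILC1s. Open circles are values under 0.1 drawn at 0.1. Groups that do not overlap were a condition for the choice of these genes, apart from Il7r, whose groups do not overlap either.

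Cytokine receptors rose in part in 7R+ ILC1s: of 30 genes tested beside Il7r, 6 were higher and 1 was lower, with a median log2FC of 0.05 where the median of all genes tested was 0. Il18r1, the ligand-binding chain of the IL-18 receptor, was at 105, 156 and 79.3 CPM in 7R+ ILC1s and at 9.02, 9.14, 4.29 and 10.4 CPM in 7R- ILC1s (3.83 ± 0.23, adjusted p = 2.35e-10). Its partner chain Il18rap was at 296, 341 and 298 CPM against 97.5 to 117 CPM (1.58 ± 0.09, adjusted p = 8.17e-11). Both chains were separate between groups, by a wider margin in Il18r1 than in Il18rap. Kit, the receptor of stem cell factor, was at 39.8, 26.7 and 55.4 CPM against 0.531, 3.58, 0.153 and 7.46 CPM (3.90 ± 0.59, adjusted p = 0.000145, and 4.80 without replicate 4 of 7R- ILC1s). Il2ra, the α chain that raises the affinity of the IL-2 receptor, was at 49.1, 52.1 and 73.3 CPM against 5.83 to 12.2 CPM (2.82 ± 0.29, adjusted p = 7.74e-07). Again no library of one group reached the other. In AL NK cells, Il18r1 was at 202 ± 40.6 CPM, Il18rap at 854 ± 24.6 CPM, Kit at 31.9 ± 23.6 CPM and Il2ra at 4.70 ± 1.27 CPM. Ifngr1, a chain of the IFN-γ receptor, rose less (0.76 ± 0.09, adjusted p = 5.78e-06), as did Il17ra (0.42 ± 0.10, adjusted p = 0.0115), whose call was lost without replicate 2 of 7R+ ILC1s (0.36, adjusted p = 0.07). Il21r was the member that fell (-0.53 ± 0.09, adjusted p = 0.000792). The shared chains of the IL-2, IL-7 and IL-15 receptors did not pass the test: Il2rb was at 4356, 4100 and 4183 CPM against 3532 to 3882 CPM (0.19 ± 0.06, adjusted p = 0.0702) and Il2rg at 775 to 823 CPM against 743 to 848 CPM (0.02 ± 0.06, adjusted p = 0.925).

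Downstream of these receptors, 3 of 26 JAK, STAT and SOCS genes were higher and none was lower at an adjusted p under 0.05 (median log2FC 0.03). Socs3 was at 18.0, 32.8 and 26.5 CPM in 7R+ ILC1s and at 3.46 to 14.3 CPM in 7R- ILC1s (1.54 ± 0.31, adjusted p = 0.00246), and Socs2 at 310, 334 and 334 CPM against 198 to 232 CPM (0.59 ± 0.11, adjusted p = 0.00123). Both encode inhibitors that cytokine signals induce. Stat4, which transmits IL-12 signals, was the third (0.44 ± 0.09, adjusted p = 0.00469), and Jak1 did not pass (0.16 ± 0.08, adjusted p = 0.315).

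Among 57 transcription factors of lymphocytes, 17 were higher and 3 were lower in 7R+ ILC1s (median log2FC 0.12). Tcf7 and Lef1 encode TCF1 and LEF1, paired factors of early and memory-like lymphocytes. Tcf7 was at 74.2, 74.4 and 109 CPM against 6.90, 8.78, 11.2 and 11.2 CPM (3.17 ± 0.21, adjusted p = 6.95e-10), and Lef1 at 60.3, 55.4 and 66.2 CPM against 11.7 to 22.6 CPM (1.93 ± 0.15, adjusted p = 8.06e-09). Both were separate between groups. Klf2, a factor of quiescence that drives transcription of S1pr1, was at 35.4, 40.8 and 43.7 CPM against 2.15 to 5.06 CPM (3.58 ± 0.23, adjusted p = 6.32e-10), and stood at 613 ± 26.4 CPM in AL NK cells. Klf3, a repressor of the same family, was at 185, 198 and 163 CPM against 18.8 to 38.1 CPM (2.87 ± 0.16, adjusted p = 9.78e-11). The libraries of the 2 groups did not overlap for either Krüppel-like factor, and AL NK cells had 424 ± 10.7 CPM of Klf3. Ikzf2, the gene of Helios, was at 83.2, 120 and 122 CPM against 27.7 to 30.2 CPM (1.91 ± 0.16, adjusted p = 3.62e-08). Maf (0.87 ± 0.16), Ahr (0.90 ± 0.15), Satb1 (0.80 ± 0.11) and Ets1 (0.45 ± 0.11), all abundant in both populations, also rose. Zbtb16, which encodes the ILC precursor factor PLZF, was at 16.5, 36.4 and 7.23 CPM against 3.94 to 8.22 CPM, and the groups overlapped. Its call (1.66 ± 0.40, adjusted p = 0.0123) rested on replicate 2 of 7R+ ILC1s (0.90 without it, adjusted p = 0.199).

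Other lineage factors differed by less. Gata3, needed by all of these lineages and highest in ILC2s, was at 254, 265 and 255 CPM against 192, 221, 186 and 209 CPM (0.35 ± 0.10, adjusted p = 0.0394), and its call was lost when any library but replicate 2 of 7R- ILC1s was left out (0.32 without replicate 3 of 7R- ILC1s, adjusted p = 0.115). The 3 factors that fell were Prdm1, the gene of Blimp-1 (-0.81 ± 0.16, adjusted p = 0.00289), Nfil3 (-0.63 ± 0.17, adjusted p = 0.0232) and Ikzf3 (-0.32 ± 0.09, adjusted p = 0.0332); the call of Nfil3 was lost on leaving out replicate 1 or 2 of either group and that of Ikzf3 on leaving out any library of 7R+ ILC1s or replicate 2 or 3 of 7R- ILC1s. Id2, the common factor of all ILCs, was at 4766, 4647 and 4447 CPM against 4210 to 4763 CPM (0.03 ± 0.06, adjusted p = 0.877).

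Rora encodes the nuclear receptor RORα, a factor of several ILC lineages. It stood at 144, 105 and 151 CPM in 7R+ ILC1s and at 23.6, 41.2, 29.4 and 23.2 CPM in 7R- ILC1s, without overlap (2.17 ± 0.18, adjusted p = 3.62e-08). In AL NK cells, Rora was at 26.3 ± 7.07 CPM. In a list of 21 genes of RORα-activated transcription that includes Rora and clock genes, 4 were higher and none was lower (median log2FC 0.00). The other 3 were Arntl, a clock activator, at 44.7, 51.6 and 58.9 CPM against 16 to 27.8 CPM (1.12 ± 0.20, adjusted p = 0.0011), the chromatin subunit gene Smarcd3 at 5.88 to 8.36 CPM against 1.07 to 2.12 CPM (2.34 ± 0.39, adjusted p = 0.000348), and the clock repressor gene Nr1d1, with 2 counts in all of 7R- ILC1s (ratio 21.4, counting interval 5.52 to 183). Nr1d1 and Smarcd3 overlap other genes on the opposite strand, and the call of Nr1d1 was lost without replicate 1 of 7R+ ILC1s (3.79, adjusted p = 0.053). The coactivator genes Crebbp and Med1 did not pass the test (0.00 ± 0.10 and 0.03 ± 0.12).

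Promoter windows of RefSeq were searched on both strands for short cores of these factors, over the 7545 tested genes with exactly 1 window of 300 bases. AGGTCA, read by RORα and other nuclear receptors, was in 16% of 257 windows of genes higher and 11.8% of 238 windows of genes lower in 7R+ ILC1s, against 12% of all windows. CTTTGA was in 9.73% and 13.9% against 12.1%, and CCACACCC, a core of Krüppel-like factors, in 4.28% and 5.04% against 3.91%. The AP-1 core TGANTCA, in which N is any base, was in 4.28% and 7.98% against 4.53%, and the T-box core TCACACC in 1.56% and 4.62% against 3.37%. TCACACC and CCACACCC can overlap by their last letters. These shares are descriptions of the letters in the windows.

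**Figure D3:**
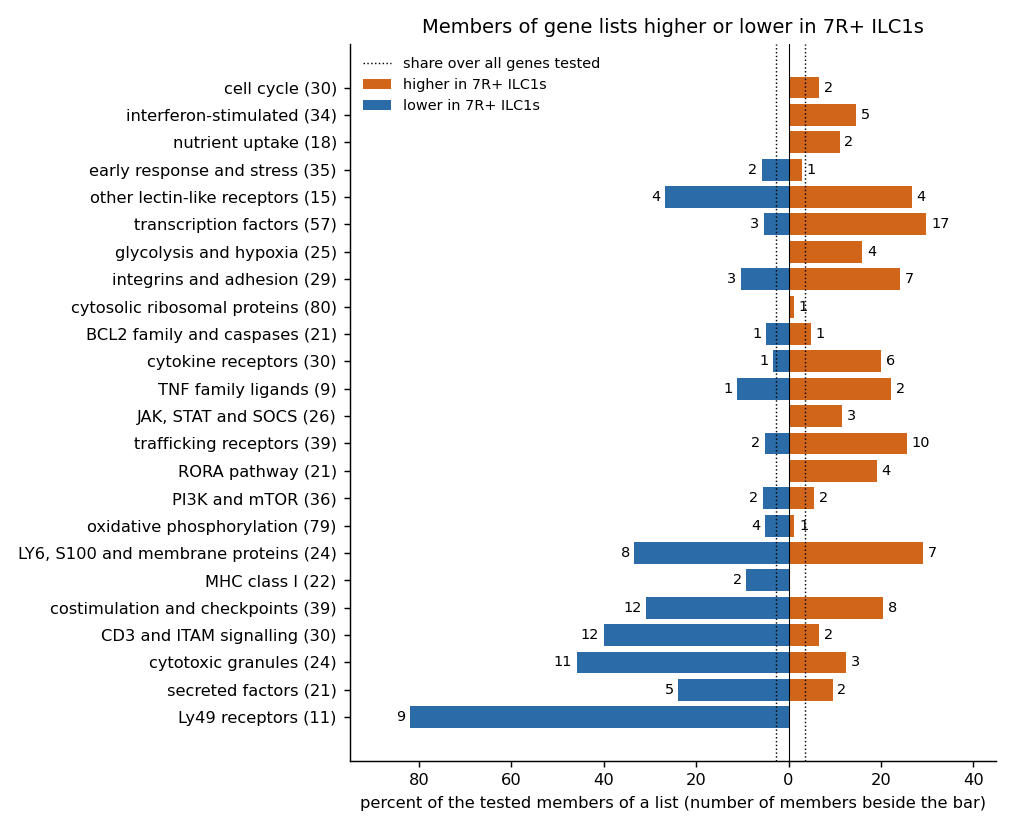
For each gene list (number of members tested in brackets), bars give the percent of tested members higher (orange, right) and lower (blue, left) in 7R+ ILC1s, with the number of members beside each bar. Dotted lines mark the shares over all 13424 genes, 3.55% higher and 2.79% lower. Transcription factors have the longest bar to the right (17 of 57) and Ly49 receptors the longest to the left (9 of 11), followed by cytotoxic granules (11 of 24) and CD3 and ITAM signalling (12 of 30).

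Of 39 receptors and regulators of trafficking, 10 were higher and 2 were lower in 7R+ ILC1s (median log2FC 0.00). Ccr2, the receptor of CCL2 that takes cells from marrow to blood and inflamed tissue, was at 662, 665 and 654 CPM against 55.2, 109, 101 and 159 CPM. Its 3 libraries of 7R+ ILC1s were almost identical and all far above the other group (2.64 ± 0.19, adjusted p = 4.59e-09). Ccr8 was at 18.48, 19.5 and 35.3 CPM against 0.92 to 3.76 CPM (3.34 ± 0.47, adjusted p = 6.02e-05), and Gpr183, the oxysterol receptor EBI2, at 58.3, 34.7 and 85.8 CPM against 8.53 to 14.9 CPM (2.39 ± 0.26, adjusted p = 1.54e-06). Ltb4r1, the leukotriene B4 receptor, was at 26.8, 35.0 and 26.1 CPM against 2.69 to 7.82 CPM (2.58 ± 0.41, adjusted p = 0.000289). All of these were separate between groups. In AL NK cells, Ccr2 was at 788 ± 71.8 CPM, Ccr8 at 0.507 ± 0.358 CPM and Ltb4r1 at 0 CPM.

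The receptors of tissue exit, high in circulating NK cells, were called from low levels. S1pr1 was at 3.52, 0.235 and 3.19 CPM with 1 count in all of 7R- ILC1s (ratio 49.7, counting interval 8.46 to 2009), and its log2FC of 5.06 was 6.70 without the library that held that count, replicate 4. Replicate 2 of 7R+ ILC1s was low and overlapped 7R- ILC1s. S1pr5, the receptor that NK cells use to leave the marrow, went the other way, at 4.40, 1.88 and 1.47 CPM against 8.24 to 17.1 CPM (-2.17 ± 0.37, adjusted p = 0.000568), with 774 ± 5.13 CPM in AL NK cells. Rgs1 was the other member that fell (-0.34 ± 0.10, adjusted p = 0.0332), with the call lost without replicate 1 or 2 of 7R+ ILC1s or replicate 1, 2 or 3 of 7R- ILC1s. Cxcr3, a receptor of interferon-induced chemokines, did not pass (-0.04 ± 0.11, adjusted p = 0.921).

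Of 29 integrin and adhesion genes, 7 were higher and 3 were lower. The tetraspanin genes Cd81, Cd82 and Cd9 rose with Emb and Itgb3: Cd81 was at 14.1, 15.5 and 25.2 CPM against 0.358 to 6.93 CPM (2.76 ± 0.61, adjusted p = 0.00603, and 3.58 without replicate 4 of 7R- ILC1s), and Cd82 at 912, 757 and 898 CPM against 433 to 546 CPM (0.80 ± 0.10, adjusted p = 1.15e-05). Itgam, the CD11b chain that increases as NK cells mature, was at 29.9, 35.9 and 18.4 CPM against 61.0 to 78.5 CPM (-1.38 ± 0.17, adjusted p = 1.45e-05). Itgax, the CD11c chain, was at 239, 267 and 197 CPM against 519 to 632 CPM (-1.32 ± 0.15, adjusted p = 4.81e-06). These 2 partner chains of β2 fell without overlap. Itgal, a more abundant partner chain, was at 1280 ± 41.7 CPM against 1227 ± 76.3 CPM and did not pass (0.06 ± 0.07, adjusted p = 0.747). Itgb2 itself did not pass either (-0.18 ± 0.06, adjusted p = 0.128).

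The Ly49 receptors, a family of lectin-like receptors for MHC class I encoded in the Klra cluster of chromosome 6, were lower in 7R+ ILC1s. Of 11 genes tested, 9 were lower and none was higher (median log2FC -2.82), and their summed level was 107 to 221 CPM in 7R+ ILC1s against 1155 to 1341 CPM in 7R- ILC1s. Klra5 was at 26.0, 21.8 and 9.80 CPM against 602, 509, 606 and 477 CPM, with no overlap (-4.91 ± 0.38, adjusted p = 1.45e-08). Klra9 was at 108, 132 and 78.8 CPM against 427, 431, 457 and 581 CPM (-2.17 ± 0.16, adjusted p = 8.06e-09). These 2 made up most of the sum in both populations. AL NK cells ranked the family otherwise, with Klra5 at 15.8 ± 4.76 CPM and Klra9 at 642 ± 52.6 CPM.

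The remaining Ly49 genes were lower still in level. Klra8, the gene of Ly49H, was at 2.86, 1.88 and 1.10 CPM against 10.7 to 30.5 CPM (-3.46 ± 0.49, adjusted p = 5.97e-05), and Klra4, the gene of Ly49D, at 0.22 to 0.469 CPM against 1.43 to 6.63 CPM (-3.43 ± 0.57, adjusted p = 0.000366). AL NK cells had 1321 ± 171.6 and 901 ± 1.25 CPM of these 2. The pseudogenes Klra13-ps (-3.28 ± 0.53, adjusted p = 0.000262) and Klra14-ps (-2.82 ± 0.37, adjusted p = 2.17e-05) had one higher library in 7R+ ILC1s, replicate 2, at 25.8 and 14.3 CPM. Without it their log2FC was -5.66 and -3.59, and without replicate 3, their lowest library, -2.57 and -2.17. Klra1 lost its call (-3.12 ± 0.88, adjusted p = 0.0385) on leaving out replicate 2 or 3 of 7R+ ILC1s or replicate 2 or 4 of 7R- ILC1s (-2.07 without replicate 4, and -4.98 without replicate 1 of 7R+ ILC1s). The Klra genes are near-identical copies, and how reads that map to several of them were counted is not given in the sources used here, so levels of single members are uncertain.

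The other lectin-like receptors of the neighbouring cluster split evenly, with 4 of 15 higher and 4 lower (median log2FC 0.13). Klrb1b, an inhibitory receptor for Clr-b, was at 804, 797 and 816 CPM against 431 to 536 CPM (0.73 ± 0.10, adjusted p = 5.97e-05), and Klrb1f rose as well (0.61 ± 0.09, adjusted p = 6.63e-05). Klrk1, the gene of the activating receptor NKG2D, was at 2409, 2325 and 2264 CPM against 1751 to 1894 CPM (0.36 ± 0.06, adjusted p = 0.000159). Klri2 fell, at 230, 365 and 292 CPM against 534 to 660 CPM (-0.98 ± 0.13, adjusted p = 1.77e-05), and so did Klrd1, the CD94 chain that pairs with NKG2A (-0.30 ± 0.06, adjusted p = 0.0041). Klrc1, the gene of NKG2A, did not pass (0.29 ± 0.10, adjusted p = 0.0968), but did with DESeq2 (adjusted p = 0.0487).

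Cytotoxic granule genes were lower in 7R+ ILC1s: 11 of 24 tested fell and 3 rose (median log2FC -0.25), and their summed level was 8868 to 9712 CPM against 21448 to 25837 CPM. Gzma, a tryptase and the most abundant granzyme transcript, was at 1440, 1312 and 1232 CPM in 7R+ ILC1s and at 10405, 8407, 9362 and 8507 CPM in 7R- ILC1s. Gzmb, the granzyme that cleaves after aspartate and activates caspases, was at 1008, 1275 and 929 CPM against 6306, 4508, 5271 and 4611 CPM. For each, the highest library of 7R+ ILC1s lay far below the lowest of 7R- ILC1s, with log2FC of -2.79 ± 0.16 (adjusted p = 9.88e-11) and -2.27 ± 0.14 (adjusted p = 4.09e-10). AL NK cells stood at 7430 ± 105 CPM of Gzma and 1282 ± 303 CPM of Gzmb. Gzmc was at 136, 136 and 130 CPM against 210 to 320 CPM (-0.92 ± 0.25, adjusted p = 0.0251), and its call was lost without any 1 of the 3 libraries of 7R+ ILC1s or without replicate 1 or 4 of 7R- ILC1s, and with DESeq2 (adjusted p = 0.181). Prf1, the gene of perforin, fell slightly (-0.40 ± 0.11, adjusted p = 0.0251; lost without replicate 2 or 3 of 7R+ ILC1s, -0.28 without replicate 3, or replicate 1 or 2 of 7R- ILC1s). Among the proteins that load and process granules, Cst7, the gene of cystatin F, was at 175, 157 and 170 CPM against 331 to 401 CPM (-1.08 ± 0.12, adjusted p = 1.64e-06), and Nkg7 at 2441, 2316 and 2153 CPM against 3048 to 3632 CPM (-0.52 ± 0.06, adjusted p = 5.07e-06).

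The 3 granule genes that rose serve secretion and protection. Lyst, a regulator of lysosome size, was at 138, 143 and 149 CPM against 44.0 to 68.9 CPM (1.36 ± 0.14, adjusted p = 1.1e-06). Rab27a, which docks granules at the membrane, rose by less (0.57 ± 0.11, adjusted p = 0.00206), as did Serpinb9, the inhibitor of granzyme B (0.47 ± 0.09, adjusted p = 0.00114). Granzymes are paralogs that lie in clusters, and the multi-mapping caveat given for the Klra genes applies to them too.

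The start of Gzmb is shown as that of a granzyme with a match to an activation-related core, and the starts of other granzymes are not given here. The gene lies on the minus strand of chromosome 14 at 56258838 to 56262260, and the window is chr14:56262285-56262584 on that strand (GRCm38.p6). Capitals mark a match to TGANTCA, 58 bases before the start.
Gzmb: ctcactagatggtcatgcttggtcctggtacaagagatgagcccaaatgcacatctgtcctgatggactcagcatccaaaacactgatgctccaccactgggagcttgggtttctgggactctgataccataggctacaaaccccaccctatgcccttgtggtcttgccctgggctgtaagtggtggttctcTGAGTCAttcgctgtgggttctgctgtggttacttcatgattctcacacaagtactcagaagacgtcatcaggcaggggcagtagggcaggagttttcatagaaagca

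CD3 chains and proximal signalling genes were also lower in 7R+ ILC1s, with 12 of 30 lower and 2 higher (median log2FC -0.23). Cd3g was at 206, 250 and 181 CPM in 7R+ ILC1s and at 2288, 1919, 2017 and 1772 CPM in 7R- ILC1s, the groups lying far apart (-3.24 ± 0.14, adjusted p = 9.37e-13), and AL NK cells had 5.20 ± 1.24 CPM. Cd3d was at 8.14, 3.28 and 4.66 CPM against 35.2 to 48.0 CPM (-3.0 ± 0.32, adjusted p = 1.44e-06). Both encode chains of the T cell receptor complex, which the gate excluded at the surface. The adaptor genes Cd247 (-0.93 ± 0.13), Fcer1g (-0.55 ± 0.07) and Tyrobp (-0.74 ± 0.10), which carry ITAM motifs for activating receptors, all fell, with Tyrobp at 887, 894 and 795 CPM against 1153 to 1669 CPM. The kinase gene Syk, at 117, 75.8 and 88.2 CPM against 134 to 195 CPM, fell by more (-0.78 ± 0.14, adjusted p = 0.000672) than Zap70 (-0.33 ± 0.07, adjusted p = 0.00511). Lck (-0.32 ± 0.08, adjusted p = 0.0222) lost its call without replicate 2 or 3 of 7R+ ILC1s or replicate 1, 2 or 3 of 7R- ILC1s. Cd7 was at 2480, 2535 and 2241 CPM against 3883 to 4802 CPM (-0.80 ± 0.10, adjusted p = 7.25e-06). The 2 members that rose were Thy1, at 65.6, 58.0 and 63.7 CPM against 15.2 to 24.5 CPM (1.63 ± 0.19, adjusted p = 6.64e-06), and Cd2 (0.53 ± 0.08, adjusted p = 0.000213).

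**Figure D4:**
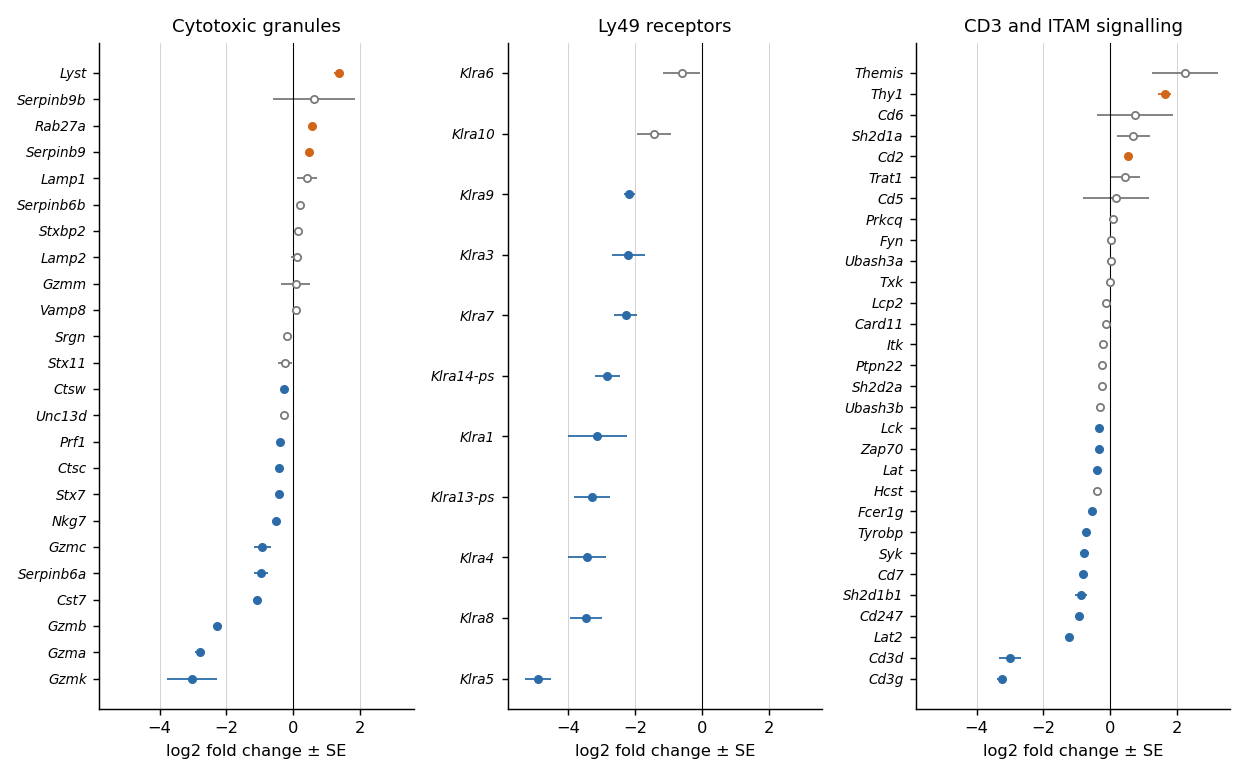
Log2 fold change (7R+ over 7R- ILC1s) with its standard error for the tested members of 3 lists: 24 cytotoxic granule genes, 11 Ly49 genes and 30 genes of CD3 and ITAM signalling. Filled points passed the test (orange higher, blue lower) and open points did not. Gzma, Gzmb and Gzmk, all Ly49 genes except Klra6 and Klra10, and Cd3d and Cd3g lie below -2.

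Costimulatory receptors and checkpoints changed in both directions, with 8 of 39 higher and 12 lower (median log2FC -0.21). Beside Cd28 and Tnfrsf25, Icos was at 68.9, 71.1 and 89.2 CPM in 7R+ ILC1s and at 24.2 to 32.5 CPM in 7R- ILC1s (1.47 ± 0.17, adjusted p = 3.42e-06). The smaller increases were in Cd160, Cd84, Ly9, Tnfrsf18 and Cd226 (0.53 to 0.70), of which Cd226 lost its call without replicate 2 of 7R+ ILC1s (0.49, adjusted p = 0.0526). The members that fell included several inhibitory receptors. Pdcd1, the gene of PD-1, was at 4.84, 2.11 and 7.35 CPM against 15.2 to 35.5 CPM (-2.12 ± 0.34, adjusted p = 0.000295), and Tigit at 41.8, 47.9 and 34.1 CPM against 128 to 143 CPM (-1.72 ± 0.15, adjusted p = 6.88e-08). Lag3 was at 37.6, 36.1 and 37.0 CPM against 58.2 to 68.4 CPM (-0.82 ± 0.20, adjusted p = 0.0139), and lost its call without replicate 2 or 3 of 7R+ ILC1s (-0.80, adjusted p = 0.0531). None of these 3 overlapped between groups. The other members that fell included Tnfrsf9, the costimulatory receptor 4-1BB (-1.39 ± 0.21, adjusted p = 0.000123), and Entpd1, the ATP-cleaving ectoenzyme CD39 (-1.13 ± 0.24, adjusted p = 0.00452). P2rx7, the ATP-gated channel used as an ILC1 signature, did not pass (0.30 ± 0.25, adjusted p = 0.606).

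Among 21 secreted factors tested, 2 were higher and 5 were lower (median log2FC -0.26). Ccl5, a chemokine stored by cytotoxic lymphocytes, was at 2276, 2015 and 2003 CPM against 3463 to 4444 CPM (-0.91 ± 0.09, adjusted p = 2.32e-07). Fgl2 was at 1331, 1522 and 1166 CPM against 2212 to 2881 CPM (-0.95 ± 0.12, adjusted p = 1.03e-05), and Csf1, the growth factor of macrophages, at 9.02, 7.51 and 5.51 CPM against 33.8 to 43.9 CPM (-2.38 ± 0.42, adjusted p = 0.00068). All 3 were lower in every library of 7R+ ILC1s. Ccl1 was far higher in 1 library of 7R+ ILC1s than in the others, at 11, 10.6 and 89.4 CPM against 1.43 to 11.4 CPM, and its call (3.00 ± 0.86, adjusted p = 0.0381) was lost without that library (1.17, adjusted p = 0.634) and without replicate 2, 3 or 4 of 7R- ILC1s (3.82 without replicate 1). Xcl1, which attracts cross-presenting dendritic cells, did not pass (-0.03 ± 0.15). Of 9 ligands of the tumor necrosis factor family, 2 were higher and 1 was lower (median log2FC 0.04). Lta, the gene of lymphotoxin α, was at 2.20, 4.69 and 5.64 CPM against 0.799 to 1.33 CPM (1.96 ± 0.49, adjusted p = 0.016) and lost its call without replicate 3 of 7R+ ILC1s (1.66, adjusted p = 0.11). Tnfsf14, the gene of LIGHT, was at 97.5, 80.01 and 82.9 CPM against 45.4 to 63.1 CPM (0.61 ± 0.17, adjusted p = 0.0359) and lost its call without any library except replicate 4 of 7R- ILC1s (0.51 without replicate 1 of 7R- ILC1s). The groups did not overlap for either gene. Fasl was lower, at 389, 398 and 374 CPM against 484 to 537 CPM (-0.37 ± 0.08, adjusted p = 0.00667), while Tnfsf10 (-0.27 ± 0.13, adjusted p = 0.267) and Ltb (0.10 ± 0.08, adjusted p = 0.597) did not pass.

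Membrane and cytoskeletal proteins of differentiation were divided, with 7 of 24 higher and 8 lower (median log2FC -0.18). Capg, an actin-capping protein, was at 50.2, 39.4 and 62.8 CPM against 5.21 to 9.82 CPM (2.95 ± 0.23, adjusted p = 1.27e-08), and Ly6a, the gene of Sca-1, at 23.5, 9.85 and 8.82 CPM against 0.266 to 2.39 CPM (3.72 ± 0.58, adjusted p = 0.000195, and 4.32 without replicate 1 of 7R- ILC1s). S100a6 was at 201, 185 and 155 CPM against 402 to 585 CPM (-1.45 ± 0.13, adjusted p = 1.38e-07), and Lgals3, the gene of galectin-3, at 17.8 to 23.1 CPM against 45.8 to 76.4 CPM (-1.64 ± 0.19, adjusted p = 5.08e-06). The groups did not overlap for any of these 4.

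Growth and metabolic programmes had small numbers of called members, to be read beside 3.55% of all genes tested higher and 2.79% lower. Of 36 genes of PI3K and mTOR signalling, 2 were higher (Inpp4b, 0.87 ± 0.15; Pik3r5, 0.63 ± 0.13) and 2 were lower (Pik3cb, -0.86 ± 0.20; Pik3cd, -0.29 ± 0.07, lost without replicate 1 or 3 of 7R+ ILC1s or replicate 3 of 7R- ILC1s), with a median log2FC of -0.11. Of 79 genes of oxidative phosphorylation, 1 was higher and 4 were lower (median -0.15), and of 80 cytosolic ribosomal protein genes 1 was higher (median 0.06). In glycolysis and hypoxia 4 of 25 rose, among them Pfkfb3, an activator of glycolysis, at 34.8, 48.6 and 33.6 CPM against 10.7 to 20.4 CPM (1.25 ± 0.27, adjusted p = 0.00543). Nutrient transporters had 2 of 18 higher (median 0.30). A positive log2FC was found for 12 of the 79 oxidative phosphorylation genes and 10 of the 36 PI3K and mTOR genes. It was found for 50 of the 80 ribosomal protein genes, 15 of the 25 glycolysis and hypoxia genes and 14 of the 18 nutrient transporters. Of all 13424 genes tested, 6706 had a positive log2FC. Bcl2, the survival factor that IL-7 induces in T cells, was at 1537, 1729 and 1474 CPM against 1487 to 1663 CPM and did not pass the test (0.01 ± 0.07, adjusted p = 0.978), whereas the pro-apoptotic Bcl2l11, the gene of BIM, fell (-0.56 ± 0.09, adjusted p = 0.000208). Bcl2a1d rose at 56.3, 33.3 and 48.5 CPM against 14.3 to 23.6 CPM (1.28 ± 0.31, adjusted p = 0.0124) and lost its call without replicate 1 or 3 of 7R+ ILC1s (1.12, adjusted p = 0.074).

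Of 30 cell cycle genes, 2 were higher and none was lower at an adjusted p under 0.05, and both calls were lost without single libraries. Over all genes tested, 3.55% were higher and 2.79% were lower. A positive log2FC was found for 25 of the 30 (median 0.40) and for 6706 of all 13424 genes tested. Rrm2, the ribonucleotide reductase subunit, was at 15.8, 41.5 and 71.4 CPM against 3.40 to 14.4 CPM (2.43 ± 0.48, adjusted p = 0.00232, and 0.0513 without replicate 3 of 7R+ ILC1s, log2FC 1.79). Top2a was at 18.48, 60.5 and 56.1 CPM against 2.93 to 27.3 CPM (1.76 ± 0.50, adjusted p = 0.0377), overlapping, and lost its call without replicate 2 or 3 of 7R+ ILC1s or replicate 1, 2 or 4 of 7R- ILC1s (2.58 without replicate 3). Mki67 was at 11.4, 25.6 and 38.8 CPM against 11.9, 1.07, 19.8 and 6.66 CPM and did not pass (1.36 ± 0.51, adjusted p = 0.131), except without replicate 3 of 7R- ILC1s (2.13, adjusted p = 0.0279). Interferon-stimulated genes had 5 of 34 higher and none lower (median 0.33). Iigp1, an interferon-inducible GTPase, was at 19.4, 4.22 and 28.5 CPM against 0.533 to 2.76 CPM (3.62 ± 0.67, adjusted p = 0.00135, and 4.34 without replicate 3 of 7R- ILC1s). Of 35 early response and stress genes 1 was higher and 2 were lower, and Jun, a subunit of AP-1, was at 36.7, 29.8 and 33.0 CPM against 131, 139, 121 and 100.2 CPM (-1.89 ± 0.20, adjusted p = 1.44e-06). MHC class I genes had 2 of 22 lower (median -0.19), among them H2-T23 (-0.42 ± 0.08, adjusted p = 0.00171), which encodes the ligand of CD94 and NKG2A.

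The other genes of largest decrease have varied roles. Htra3, a secreted serine protease, was at 0.88, 0 and 0.123 CPM in 7R+ ILC1s and at 148, 108, 115 and 96.7 CPM in 7R- ILC1s. It was close to absent from one population and present in every library of the other (-8.50 ± 0.50, adjusted p = 1.62e-10, and -10.12 without replicate 1 of 7R+ ILC1s). Kcnk5, a potassium channel, was at 14.5, 11.97 and 9.07 CPM against 46.9 to 69.1 CPM (-2.30 ± 0.21, adjusted p = 1.88e-07), and Sept4, a septin, at 26.8, 18.54 and 22.9 CPM against 67.9 to 105 CPM (-1.85 ± 0.21, adjusted p = 4.4e-06). Avil, which encodes the actin regulator advillin and overlaps Tsfm on the opposite strand, was at 7.26, 18.54 and 12.99 CPM against 48.0 to 95.8 CPM (-2.42 ± 0.37, adjusted p = 0.000141). Art2b, an ADP-ribosyltransferase that acts on P2X7, was at 18.9 to 27.7 CPM against 65.0 to 90.8 CPM (-1.79 ± 0.39, adjusted p = 0.00515, and 0.0786 with DESeq2).

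Markers of other cells that a liver sort could hold were read as whole lists. Of 12 NK cell markers, 3 were higher, among them Klf2 and Zeb2, and 5 were lower (Itgam, S1pr5, Klra4, Klra8, Klra3), and their sum was 249.7 to 332 CPM in 7R+ against 334 to 369 CPM in 7R- ILC1s. Of 13 T cell markers tested, Cd28 and Lef1 were higher and Cd3e, Cd3d, Cd8a and Trbc2 lower, and the sum was 1504 to 1572 CPM against 1608 to 1775 CPM. Cd8a was at 0.66, 0 and 0 CPM (3 counts) against 6.81 to 20.2 CPM, a ratio of 69.7 with a counting interval of 23.6 to 341 (log2FC -5.98, -9.10 without replicate 1 and -5.19 without replicate 3 of 7R+ ILC1s). Of 4 ILC3 markers tested 2 were higher, Ltb4r1 among them, with a sum of 39.6 to 49.5 CPM against 8.53 to 12.3 CPM, and of 4 ILC2 markers Gata3 was higher. Macrophage markers summed to 6.33 to 28.2 CPM against 13.5 to 65.5 CPM with none of 11 called, hepatocyte markers to 22.99 to 28.6 CPM against 16.4 to 49.3 CPM with none of 2 called, and endothelial markers to 68.5 to 102 CPM against 86.5 to 97.8 CPM with Eng higher. B cell markers had Ighm higher (0.33, lost without replicate 3 of 7R+ ILC1s) and Ighd lower, with Iglc2 at 0, and Cd74 at 48.6, 11.3 and 35.3 CPM against 2.12 to 21.3 CPM passed only without replicate 2 of 7R+ ILC1s or replicate 4 of 7R- ILC1s (2.37 and 2.90). Myeloid markers summed to 532 to 653 CPM against 234 to 283 CPM, of which Mmp9, Cst3 and Itgam were the bulk, with S100a9 at 0 in all 7 libraries. Erythroid markers summed to 0.66 to 2.11 CPM in 7R+ ILC1s and 0.533 to 439 CPM in 7R- ILC1s, and Hba-a1 was at least 450-fold higher in 7R- ILC1s, taken at 3 counts over the group, from 2 of the 4 libraries. Its call (log2FC -11.35, adjusted p = 0.0211) was lost without any library of 7R+ ILC1s or without replicate 3 of 7R- ILC1s (-10, adjusted p = 0.0562). Of platelet markers Ppbp and Gp1bb were at 0, and no stellate cell marker passed the filter. The part of these cells in the results was not tested.

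IL-7R also separates 2 populations outside the adult liver. BM iILC1s had 1191 ± 80.1 CPM of Il7r (SD, n = 3) and FL G1-ILCs 0.899 ± 0.815 CPM (SD, n = 3, with a pair of near-copies counted as 1). These libraries share none with the liver pair, though age and tissue differ together with the receptor. Against FL G1-ILCs, 2828 genes were higher (21.1%) and 3086 lower (23%) in BM iILC1s. Of the 477 genes higher in liver 7R+ ILC1s, 320 (67.1%) were also higher in BM iILC1s and 51 (10.7%) were lower. Of the 375 genes lower in 7R+ ILC1s, 195 (52%) were also lower in BM iILC1s and 53 (14.1%) were higher. They were 11.3% of the genes higher and 6.32% of the genes lower in BM iILC1s.

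The genes with the largest liver differences followed this pattern in part. Emb was at 397 ± 15.1 CPM in BM iILC1s and 39.4 ± 10.6 CPM in FL G1-ILCs (log2FC 3.32, adjusted p = 1.24e-11), Tcf7 at 212 ± 25.2 and 12.5 ± 2.84 CPM (4.10) and Rora at 206 ± 26.3 and 27.7 ± 0.70 CPM (2.89). Gzma was at 207 ± 78.0 CPM in BM iILC1s and 17721 ± 51.9 CPM in FL G1-ILCs (-6.42), Gzmb at 73.5 ± 10.4 and 6930 ± 31.2 CPM (-6.56) and Klra5 at 35.2 ± 29.1 and 900 ± 43.9 CPM (-4.68). Each of these had the direction it had in the liver. Klra9, lower in liver 7R+ ILC1s, was higher in BM iILC1s, at 102 ± 18.2 against 5.93 ± 1.39 CPM (4.07, adjusted p = 1.17e-11), and so were Klra8 (4.33) and S1pr5 (1.14).

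**Figure D5:**
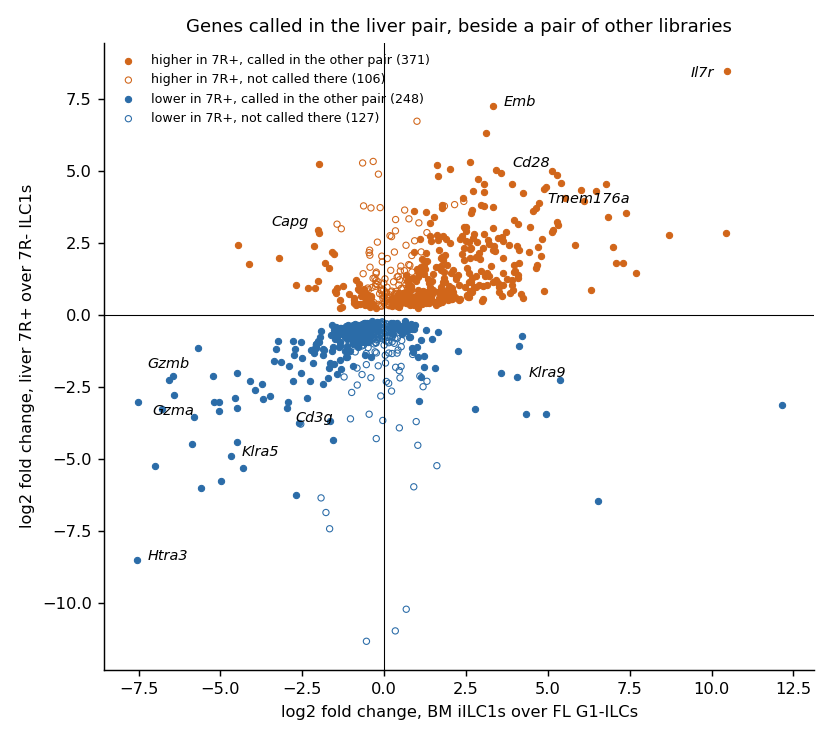
Log2 fold change of BM iILC1s over FL G1-ILCs (x) against that of liver 7R+ over 7R- ILC1s (y) for the 852 genes called in the liver pair, orange higher and blue lower in 7R+ ILC1s. Filled points (371 and 248) were called in the other pair in either direction and open points (106 and 127) were not. Il7r and Emb lie at the upper right, Gzma, Gzmb and Htra3 at the lower left, and Klra9 at the lower right.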

How the data were processed

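RNA of pools of sorted cells was amplified with the SMART-seq HT kit. The values are raw read counts per gene deposited by the authors, per the labels and methods. Trimming used fastp 0.23.0, alignment to mm10 used HISAT2 2.1.0, and counting used featureCounts (Subread 1.6.5). The annotation release and the settings for strand and multi-mapped reads are not given in the sources used here. Gene names and positions were matched by identifier to GENCODE vM21, with 849 identifiers unmatched.

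Counts were tested with edgeR 4.0.16 in R 4.3.3 (quasi-likelihood, TMM normalization, genes kept by filterByExpr at a minimum count of 10). The 1 fit held 18 samples in 6 groups with 12 residual degrees of freedom. In it, fetal liver replicates 2 and 3 were summed as 1 sample, because they differed by little more than counting noise in earlier results of these data. Intestinal and salivary gland groups were left out of that fit. p-values were adjusted by Benjamini-Hochberg over all genes tested, and the standard error of a log2 fold change was derived from its F statistic. The pipeline was tested on simulated data. DESeq2 1.42.0 was an alternative tool. Counting intervals and bounds cover counting error only.

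The comparison, the gene lists and the tests were chosen with earlier results of these data known. The list of RORα-activated transcription was recalled and not copied from a database. Named were the genes of the sorting gate, up to 15 called genes per direction with an average log2 CPM of at least 5 and separate groups, up to 6 called members per direction and 3 members of highest level that did not pass from each list, and genes that the study discusses for this comparison. Prf1, Nkg7, Fcer1g, Tyrobp, Zap70, Syk, Lck, Gpr183, Zbtb16, Ikzf2, Maf, Ahr, Ets1, Satb1, Cd160, Tnfrsf18, Tcrg-C4, Tcrg-C2, Tcrg-V1, Cdh1, Ramp1, Serpinb1a, Bmp7, Htra1, Tspan9, Ptger3 and Lrrk1 were chosen after their values were seen. Alternatives were another normalization, filter, tool, set of samples, depth, threshold, a replicate block and leaving out each library. Some members of the lists are counted but not reported here by name.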

Additional observations from a re-analysis of the deposited data

Results flagged for a closer look

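Within 7R- ILC1s, whose 4 libraries allow the check, 1 library stood apart from the other 3 for 14 of the 173 genes named, by a gap to its neighbour above Dixon's 95% limit, and chance alone gives about 1 in 20. Replicate 4 was the highest for Il7r at 4.53 CPM, where the next library was at 1.075 CPM, and for S1pr1 at 0.2665 CPM, a single count. It was the lowest for Klrc1 at 1422 CPM and for Lck at 1143 CPM. Replicate 1 was the highest for Cst7 at 401.1 CPM and Tnfrsf9 at 282.8 CPM and the lowest for Tnfrsf25 at 2.122 CPM and Inpp4b at 144.8 CPM. Replicate 2 was the highest for Fasl at 537.4 CPM and Tcrg-C4 at 178.6 CPM and the lowest for Xcl1 at 315.3 CPM and Tspan9 at 30.81 CPM. Replicate 3 was the highest for Itgb3 at 40.79 CPM and the lowest for Klra14-ps at 44.47 CPM.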

How the results depend on the processing

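The 477 genes higher and 375 lower in 7R+ ILC1s became 252 and 149 when a log2 fold change of at least 1 was required and 270 and 201 at an adjusted p under 0.01. Leaving out each library in turn gave 343 to 451 higher and 240 to 382 lower genes. The replicate block, fitted because both groups are numbered, gave 392 higher and 320 lower, and with only the 7 libraries 317 and 290. Deviations of libraries with the same number correlated at -0.014, 0.029 and 0.015, so the numbers were not taken as pairs. Scaling by library totals gave 573 higher and 323 lower and shifted the median log2 fold change by 0.041. DESeq2 gave 574 and 479, and 831 of the 852 calls were shared. Setting aside both 7R- libraries with hemoglobin reads was chosen after seeing the data. Under the other settings tried, the counts were 356 to 565 higher and 314 to 409 lower. No named gene that was called in the main fit or under a setting reversed its direction there. Sign changes of genes without a call were not counted. For BM iILC1s against FL G1-ILCs, DESeq2 gave 3018 higher and 3006 lower. Genes of a few counts are limited by depth, and their ratios carry counting intervals.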

Other observations

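Some T cell receptor constant genes differed between the 2 populations: Tcrg-C1 and Tcrg-C4 were higher in 7R+ ILC1s and Trbc2 was lower, whereas Tcrg-C2, Trbc1 and Trac did not pass the test. Tcrg-C1, on chromosome 13 at 19214103 to 19217024, was at 107, 115 and 145 CPM in 7R+ ILC1s and at 23.1, 12.2, 33.3 and 39.7 CPM in 7R- ILC1s (log2FC 2.19 ± 0.31, adjusted p = 6.45e-05 by edgeR). Tcrg-C4 was at 450, 475 and 436 CPM against 133, 179, 137 and 135 CPM (1.63 ± 0.14, adjusted p = 8.36e-08), and the variable gene Tcrg-V1 next to it at 13.1 to 14.96 CPM against 2.61 to 5.06 CPM (1.81 ± 0.44, adjusted p = 0.0125). In each of the 3 the groups were separate. Tcrg-C2 was at 6.74 to 9.68 CPM against 6.27 to 13.3 CPM (-0.02 ± 0.36), Trbc1 at 813 to 866 CPM against 884 to 955 CPM (-0.11 ± 0.07, adjusted p = 0.46) and Trac at 12.7 to 16.4 CPM against 8.06 to 11.99 CPM (0.60 ± 0.22, adjusted p = 0.128). The constant genes of this locus are near-identical copies, so reads may be split between them.

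Epcam, Cdh1 and Cdh17, which encode adhesion proteins of epithelia and of some leukocytes, were each lower in 7R+ ILC1s. Epcam was at 11.9, 15.95 and 10.2 CPM against 83.3, 57.0, 45.9 and 42.9 CPM (-2.18 ± 0.34, adjusted p = 0.000208), and Cdh1, the gene of E-cadherin, at 7.26, 8.92 and 10.7 CPM against 40.1, 21.5, 51.5 and 44.8 CPM (-2.13 ± 0.47, adjusted p = 0.00607). Cdh17 was at 5.06, 24.6 and 2.94 CPM against 69.5 to 84.5 CPM (-2.89 ± 0.61, adjusted p = 0.00387), with replicate 2 of 7R+ ILC1s the highest of its group (-4.32 without it), and the call was lost with DESeq2 (adjusted p = 0.071). Of 14 hepatocyte markers only 2 passed the filter, with no call, and bile duct markers were not listed, so the part of epithelial cells was not tested.

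Several genes outside the lists had large differences and were chosen after their values were seen. Ramp1, a partner of the receptor for the neuropeptide CGRP, was at 27.7, 25.6 and 27.6 CPM in 7R+ ILC1s and 0.537 to 1.99 CPM in 7R- ILC1s (4.59 ± 0.39, adjusted p = 4.8e-08, and 5.24 without replicate 3 of 7R- ILC1s). Serpinb1a, an inhibitor of neutrophil-type proteases, was at 31.2, 33.6 and 41.8 CPM against 1.33, 0, 0 and 0.266 CPM (6.73 ± 0.76, adjusted p = 3.67e-06, and 8.67 without replicate 1 of 7R- ILC1s). Bmp7, a ligand of the BMP family, was at 45.8 to 60.7 CPM against 7.67 to 14.4 CPM (2.35 ± 0.26, adjusted p = 3.2e-06). Among those lower, Tspan9 was at 1.10 to 2.86 CPM against 30.8 to 54.4 CPM (-4.49 ± 0.45, adjusted p = 6.93e-07), Ptger3, a prostaglandin E2 receptor, at 1.54 to 3.31 CPM against 12.3 to 41.4 CPM (-3.26 ± 0.49, adjusted p = 0.000124), Lrrk1 at 239, 255 and 217 CPM against 577 to 719 CPM (-1.46 ± 0.11, adjusted p = 6.45e-09), and Htra1, of the same protease family as Htra3, at 0.858 to 6.60 CPM against 19.5 to 46.7 CPM (-3.04 ± 0.63, adjusted p = 0.00452, and -3.83 without replicate 1 of 7R+ ILC1s).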
